A study of Homo sapiens with 12 samples.

Results

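Heat shock proteins and their cochaperones were followed in MV4-11, a cell line from a human acute myeloid leukaemia, after 6 h with compounds directed at CDK4 and CDK6. The 39 member genes were taken by symbol, through the Ensembl identifiers that GENCODE pairs with those symbols, from 58051 genes in the count table. By the main location of the protein, 27 members were cytosolic, 5 belonged to the endoplasmic reticulum (ER), 5 to mitochondria, and 2 were the transcription factors HSF1 and HSF2. All 39 passed the filter on low counts, and the lowest count of any member in any library was 82.

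Cells received 200 nM BSJ-03-123, 200 nM YKL-06-102, 200 nM palbociclib or 0.1% DMSO for 6 h, and 3 libraries of polyadenylated RNA were sequenced per group. Palbociclib blocks the kinase activity of CDK4 and CDK6. BSJ-03-123 and YKL-06-102 are known from the labels only as phthalimide conjugates with specificity for CDK6. A single line, dose and time were used, and the labels do not say whether the 3 libraries of a group came from separate cultures, so p-values measure only the spread between libraries, which may be technical.

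Chaperones bind unfolded or partly folded proteins. HSP70 proteins do so in cycles of ATP hydrolysis that J-domain proteins start and nucleotide exchange factors such as HSP110 proteins and BAG3 reset. HSP90 proteins act later, with cochaperones that load clients or time the cycle, and many protein kinases, CDK4 and CDK6 among them, reach HSP90 through the cochaperone CDC37. In the cytosol HSF1 drives heat shock genes through heat shock elements, repeats of a GAA unit in alternating orientation, whereas the unfolded protein response drives ER chaperones such as HSPA5 through ER stress elements.

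Libraries held 18764307 to 25539858 counts. Of 12 markers of the myeloid leukaemia line, 11 had a median of at least 1 CPM (counts scaled to each library's effective size), and CD68 had 0.639. Their summed level was 2370 to 2384 CPM with BSJ-03-123, 2685 to 2717 with YKL-06-102, 2407 to 2444.0 with palbociclib and 2234 to 2250 with DMSO. MS4A1, HBB, PF4 and EPCAM, which define lymphoid, erythroid, platelet and epithelial cells, were at 0 counts in every library, while ITGA2B reached 13.8, KRT8 8.93 and KRT18 13.1 CPM. DMSO replicate 2 stood apart from the other DMSO libraries, with a chi-square per degree of freedom of 5.41 and 8.18 against them, compared with 1.66 to 2.76 for every other pair within a group. Counts without it are given beside the main counts.

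Promoter sequences are shown for the stress-inducible HSP70 pair, for the members with a heat shock element of 3 or more units, for HSPB1 and for the members with an ER stress element, because these are the elements through which HSF1 and the unfolded protein response act on cytosolic and ER chaperone genes. They come from RefSeq on GRCh38.p14, read 5′ to 3′ on the strand of the gene, with the matched motif in capitals. HSPA1A and HSPA1B, the stress-inducible HSP70 genes, are given as stretches of 100 bases upstream of their starts (chr6:31815363-31815462 and chr6:31827559-31827658, plus strand), with the match 106 and 105 bases before the RefSeq start. The stretches differ at 4 of 100 positions and hold the same 2-unit match, GAANNTTC, in which N is any base.
HSPA1A: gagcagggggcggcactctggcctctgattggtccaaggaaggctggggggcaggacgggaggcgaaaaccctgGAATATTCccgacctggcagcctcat
HSPA1B: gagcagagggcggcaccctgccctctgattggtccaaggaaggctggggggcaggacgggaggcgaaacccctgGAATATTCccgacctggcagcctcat

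The next 8 members had 3 or more alternating units, each shown within 30 bases: HSPA8 (chr11:123062170-123062199, minus strand), HSP90AA1 (chr14:102087111-102087140, minus), HSP90AB1 (chr6:44247823-44247852, plus), DNAJA1 (chr9:33025268-33025297, plus), DNAJB6 (chr7:157336865-157336894, plus), CHORDC1 (chr11:90223083-90223112, minus), HSPD1 (chr2:197500061-197500090, minus) and SERPINH1 (chr11:75562169-75562198, plus).
HSPA8: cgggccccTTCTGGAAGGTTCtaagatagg
HSP90AA1: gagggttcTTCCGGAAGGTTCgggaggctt
HSP90AB1: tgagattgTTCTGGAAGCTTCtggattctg
DNAJA1: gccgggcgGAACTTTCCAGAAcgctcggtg
DNAJB6: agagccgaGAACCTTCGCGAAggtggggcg
CHORDC1: ccgGAAAATTCGCGAAGGTTCCTGAAacgc
HSPD1: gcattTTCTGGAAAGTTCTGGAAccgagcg
SERPINH1: ttccaactTTCCAGAAGTTTCtcgggacgg

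The ER stress element, CCAAT, 9 bases and then CCACG, was matched in HSPA5 (200 bases, chr9:125241344-125241543, minus strand) and, read on the other strand, in HSP90B1 (chr12:103930316-103930345, plus strand).
HSPA5: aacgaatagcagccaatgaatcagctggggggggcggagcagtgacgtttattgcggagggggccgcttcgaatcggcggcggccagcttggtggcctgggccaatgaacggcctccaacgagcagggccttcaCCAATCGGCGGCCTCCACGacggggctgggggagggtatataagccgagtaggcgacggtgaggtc
HSP90B1: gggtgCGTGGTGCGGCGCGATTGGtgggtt

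Windows from 250 bases before to 50 after the start were searched on both strands. At least 1 window was available for 36 of 39 members, with 53 windows in all, and a gene counted if any of its windows matched. The 2-unit element (GAANNTTC or TTCNNGAA, which overlap within longer repeats) was found in 19 of 36 members, or 52.8%, against 16.2% of 27305 genes. It was found in 16 of 25 cytosolic members, 1 of 5 ER members and 2 of 5 mitochondrial members. The 3-unit element was in 8 of 36 members (22.2%) against 0.608% of genes, and the ER stress element in 2 of 36 against 0.0916%. Counted by window, the 2-unit element was in 37.7% of 53 member windows against 13.5% of all 35116. The 3-unit element was in 15.1% against 0.490%, and the ER stress element in 3.77% against 0.0769%. A match is a string of letters and was not tested for binding.

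Most members fell with every compound relative to DMSO. In edgeR's quasi-likelihood test, with p adjusted by Benjamini-Hochberg over 14214 genes and a threshold of 0.05, BSJ-03-123 lowered 24 of 39 members and raised 1, while 28.1% of all genes were called (15.7% lower, 12.4% higher). YKL-06-102 lowered 26 and raised 3, against 36.9% of all genes called (21.3% lower, 15.6% higher). Palbociclib lowered 29 and raised 2, against 33.3% of all genes called (17.6% lower, 15.6% higher). The median log2 fold change over the members was -0.14, -0.14 and -0.20 in that order of compounds, and over all genes 0.0075, -0.017 and 0.014. Without DMSO replicate 2, BSJ-03-123 lowered 24 members and raised 2, YKL-06-102 lowered 22 and raised 5, and palbociclib lowered 28 and raised 1. Of all genes, 4088, 5583 and 4599 were called in those fits, against 3997, 5249 and 4731 in the main fit. Each comparison used the same 3 DMSO libraries, so the 3 sets of values share their denominator. In RNA from a whole culture, fewer cells that make a transcript and less of it per cell cannot be told apart.

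The members lower with all 3 compounds numbered 23 of 39, whereas 11.8% of all tested genes had that pattern. They were HSPA1A, HSPA1B, HSPA8, HSPA14, HSPA4L, HSPH1, HSP90AA1, HSP90AB1, DNAJA1, DNAJA4, DNAJB1, STIP1, AHSA1, CHORDC1, FKBP4, CACYBP, PTGES3, TCP1, CCT2, HSPA9, HSPD1, HSPE1 and HSF2. Of the 23, 17 kept all their calls under every one of 20 alternative settings in which they had a value, 12 of which left out 1 library each; HSPA1A and HSPA1B have no value of their own in the setting that sums them. HSP90AB1, AHSA1, FKBP4, CCT2, HSPA9 and HSPE1 lost at least 1 call. One member, HSPA5, was higher with all 3 compounds, a pattern of 6.23% of all genes. CCT3, HSP90B1, DNAJB11 and HSF1 were called with no compound in edgeR, as were 49.9% of all genes.

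**Figure D1:**
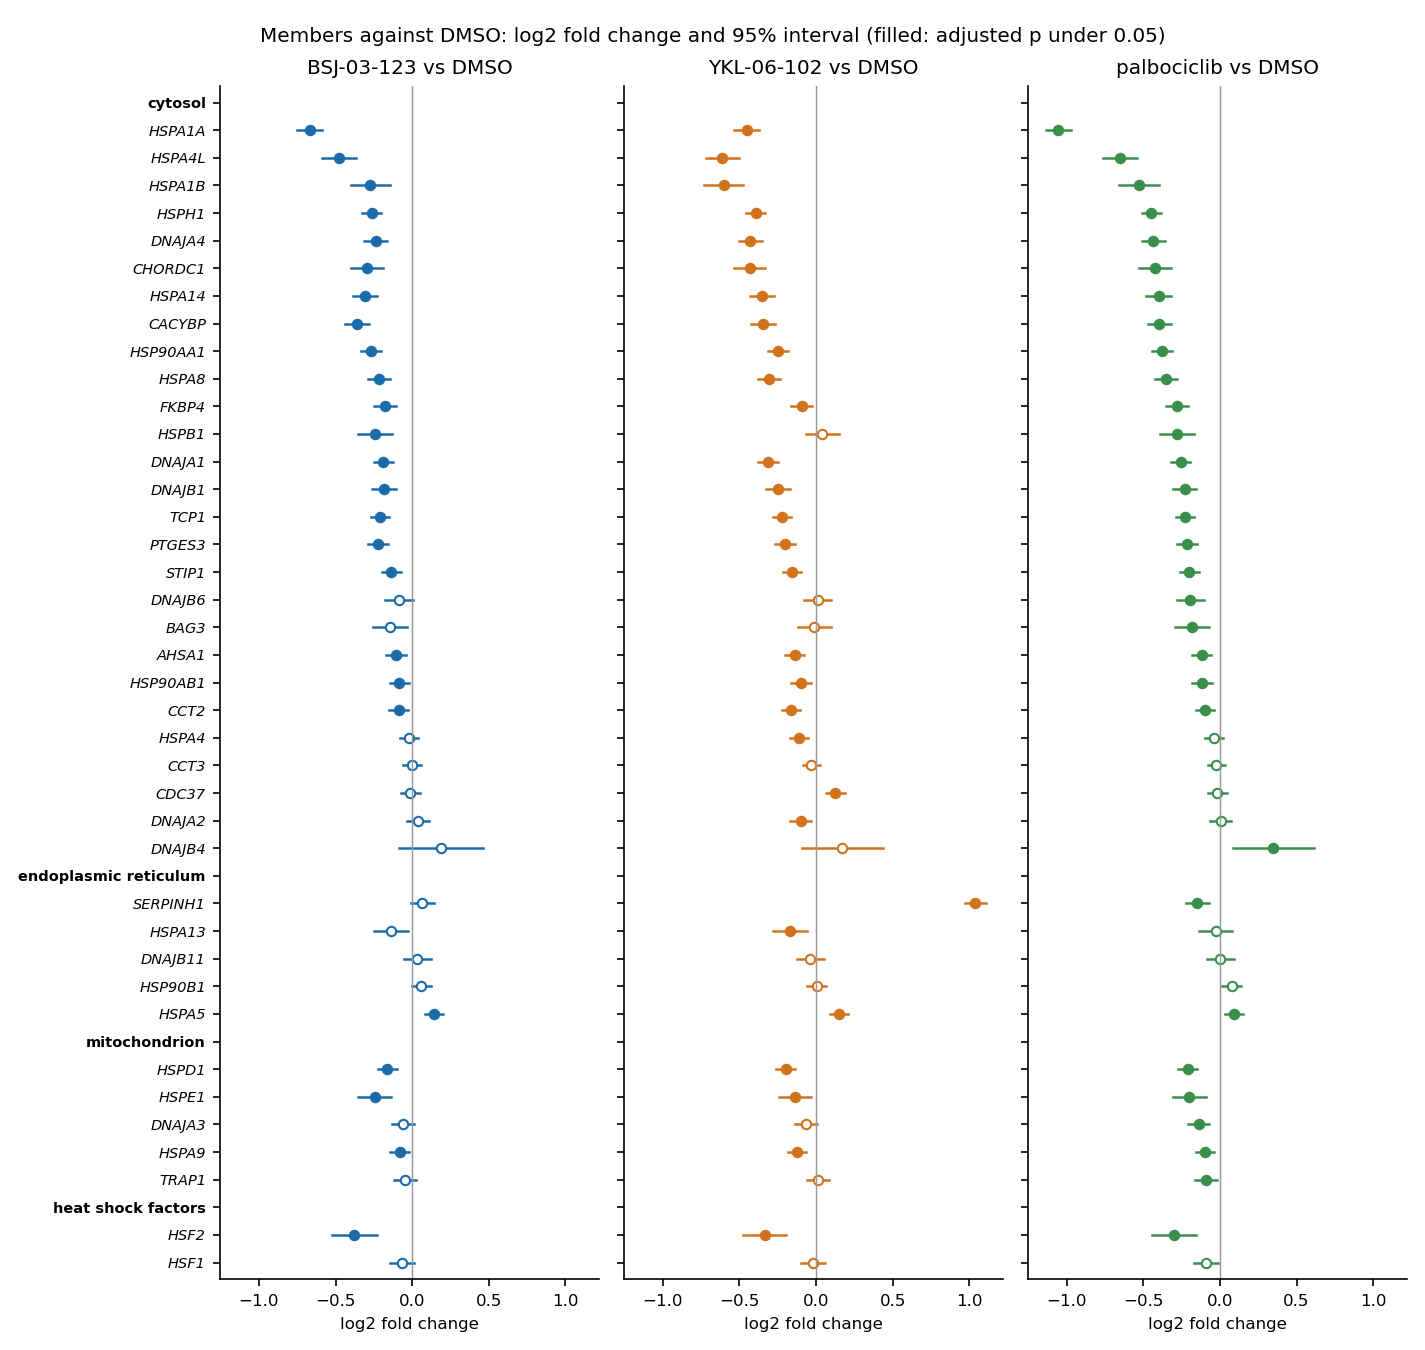
Log2 fold changes of the 39 members against DMSO for BSJ-03-123, YKL-06-102 and palbociclib, with 95% intervals from edgeR, and filled points for adjusted p under 0.05. The cytosolic members lie mostly left of 0, HSPA1A reaches -1.05 with palbociclib, and SERPINH1 reaches 1.04 with YKL-06-102.

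Among the cytosolic HSP70 and HSP110 genes, 6 of 7 were lower in BSJ-03-123 libraries, all 7 in YKL-06-102 libraries and 6 of 7 in palbociclib libraries. HSPA1A (chr6:31815464-31817946, plus strand, in GENCODE on GRCh38) had the lowest log2 fold change of the members with BSJ-03-123 and with palbociclib. Its libraries held 168, 182 and 188 CPM under BSJ-03-123, 208, 207 and 211 under YKL-06-102, 134, 138 and 140.4 under palbociclib, and 277, 305 and 273 under DMSO. No library of any compound overlapped with DMSO, and the 4 groups did not overlap with each other. HSPA1A fell by 37.1% with BSJ-03-123 (log2 fold change -0.67, 95% interval -0.75 to -0.59, edgeR adjusted p = 1.03e-13). It fell by 26.9% with YKL-06-102 (-0.45, -0.53 to -0.37, adjusted p = 2.84e-10) and fell by 51.9% with palbociclib (-1.05, -1.14 to -0.97, adjusted p = 3.33e-18).

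HSPA1B (chr6:31827735-31830255, plus strand) encodes nearly the same protein from a neighbouring gene. It had 18.96, 19.1 and 17.97 CPM under BSJ-03-123, 14.6, 14.98 and 14.99 under YKL-06-102, 14.4, 16.3 and 16.2 under palbociclib, and 23.2, 22.6 and 21.9 under DMSO. All compound libraries were below all DMSO libraries, and the order of the compounds was not that of HSPA1A. Its log2 fold changes were -0.27 for BSJ-03-123, -0.60 for YKL-06-102 and -0.53 for palbociclib (edgeR adjusted p 0.00121, 7.69e-09 and 1.13e-07). The pair cannot be fully separated by short reads, since 72.6% of the 50-base windows of HSPA1A and 71.4% of those of HSPA1B are not unique among annotated transcripts. HSPA1B made up 8.71 to 10.2% of the pair's summed CPM with BSJ-03-123, 6.55 to 6.74% with YKL-06-102, 9.73 to 10.6% with palbociclib and 6.89 to 7.73% with DMSO. With the pair summed before the test, the log2 fold changes were -0.64, -0.46 and -1.01 in the same order of compounds (edgeR adjusted p 1.25e-13, 8.1e-11 and 3.42e-18).

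HSPA8, the constitutive cytosolic HSP70, was the member with the highest level. It had 4593, 4647 and 4340.2 CPM under BSJ-03-123, 4274, 4372 and 4116 under YKL-06-102, 4152, 4199 and 4019 under palbociclib, and 5276, 5378 and 5145 under DMSO. Each compound lay below DMSO without overlap, and the compounds overlapped with one another except BSJ-03-123 with palbociclib. It fell by 14.0% with BSJ-03-123, fell by 19.2% with YKL-06-102 and fell by 21.7% with palbociclib (edgeR adjusted p 1.39e-05, 2.94e-08 and 2.74e-09).

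HSPA4L, an HSP110-family exchange factor, had 31.8, 35.1 and 34.4 CPM under BSJ-03-123, 30.2, 33.0 and 29.2 under YKL-06-102, 31.5, 29.6 and 28.5 under palbociclib, and 46.3, 46.4 and 48.5 under DMSO. It was below DMSO in all 9 treated libraries, with log2 fold changes of -0.48, -0.61 and -0.65 (edgeR adjusted p 4.94e-08, 2.13e-10 and 8.59e-11). HSPH1, which encodes HSP110 (HSP105), had 539, 565 and 546 CPM under BSJ-03-123, 499, 517 and 492 under YKL-06-102, 483, 485 and 485 under palbociclib, and 662, 654 and 666 under DMSO. Again no treated library reached a DMSO library, and its log2 fold changes were -0.26, -0.39 and -0.45 (edgeR adjusted p 4.34e-08, 1.03e-11 and 6.59e-13). HSPA14, an HSP70-like protein associated with ribosomes, had 69.2, 67.6 and 71.9 CPM under BSJ-03-123, 68.9, 67.9 and 65.4 under YKL-06-102, 64.0, 66.3 and 65.4 under palbociclib, and 88.7, 84.2 and 85.7 under DMSO. The compounds lay together below DMSO, at -0.31, -0.35 and -0.40. HSPA4, a close relative of HSPA4L, differed little: -0.02 for BSJ-03-123, -0.11 for YKL-06-102 and -0.04 for palbociclib. Only its YKL-06-102 value was called (edgeR adjusted p 0.00285), and without YKL-06-102 replicate 3 it was -0.08 and not called.

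**Figure D2:**
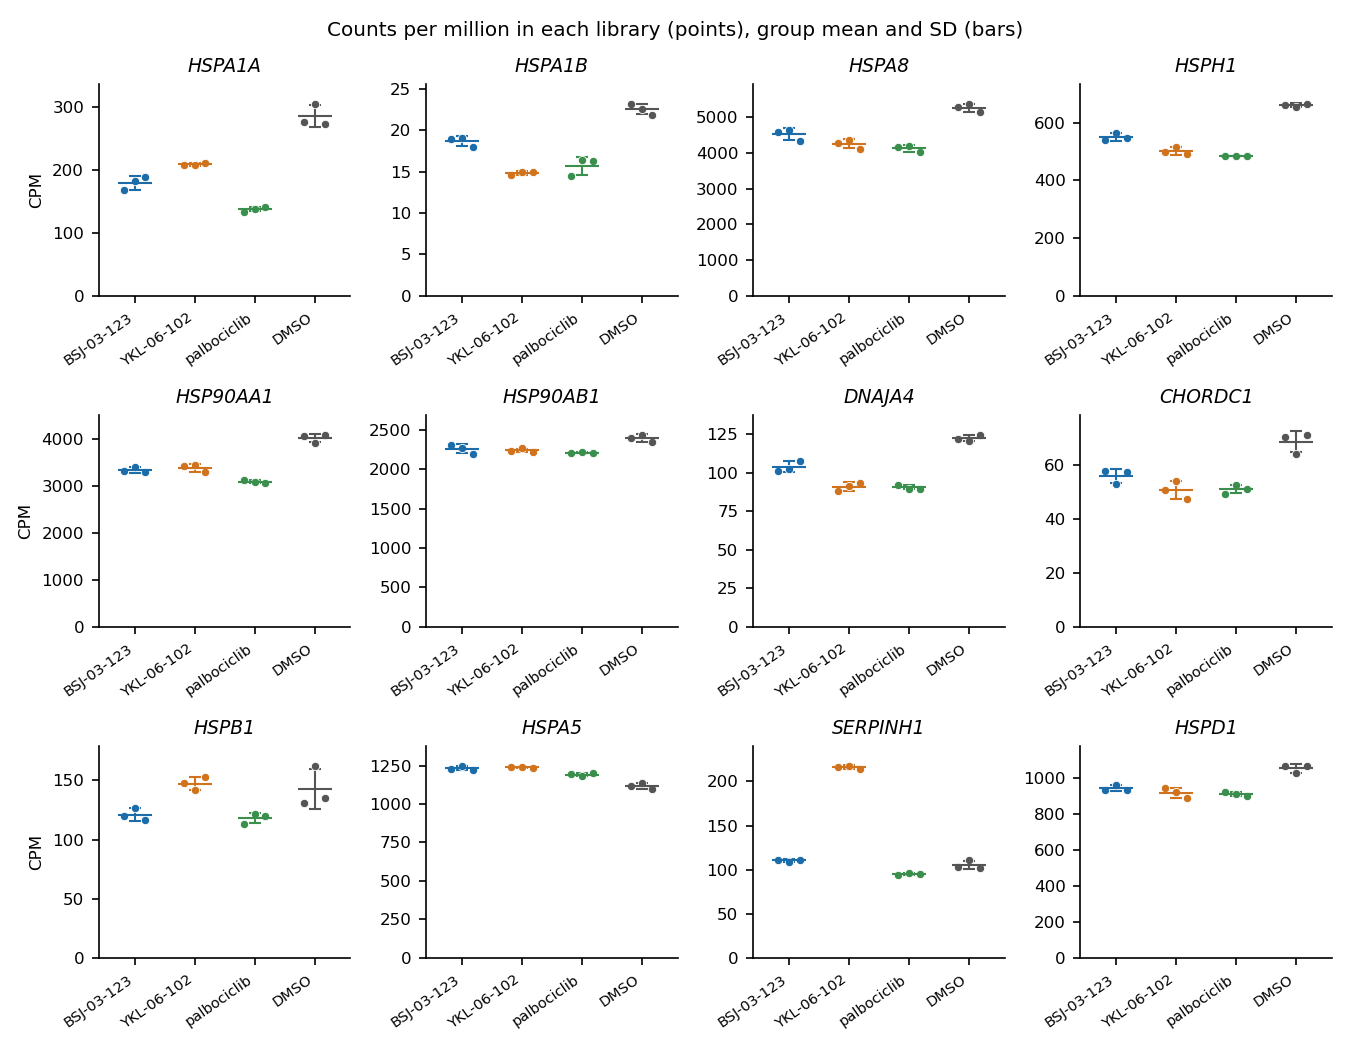
CPM in each of the 12 libraries (points) with the group mean (line) and SD (bars) for 12 members, each panel on its own linear axis. HSPA1A separates all 4 groups, SERPINH1 stands at 214 to 218 CPM with YKL-06-102 alone, and HSPA5 is higher with each compound than with DMSO.

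Both cytosolic HSP90 genes fell with all compounds, by different amounts. HSP90AA1, the inducible form, had 3321, 3409 and 3299.5 CPM under BSJ-03-123, 3431, 3450.3 and 3291 under YKL-06-102, 3126, 3078 and 3072 under palbociclib, and 4059.7, 3921 and 4096 under DMSO. The treated libraries lay below DMSO and palbociclib lay below both other compounds. It fell by 17.0% with BSJ-03-123, fell by 15.8% with YKL-06-102 and fell by 23.2% with palbociclib (edgeR adjusted p 1.16e-07, 2.96e-07 and 9.88e-11). HSP90AB1, the constitutive form, had 2309, 2269 and 2197 CPM under BSJ-03-123, 2229, 2264 and 2217 under YKL-06-102, 2209.8, 2211 and 2199.8 under palbociclib, and 2401, 2437 and 2342 under DMSO. Its groups did not overlap with DMSO but the differences were small, at -0.08, -0.10 and -0.12 (edgeR adjusted p 0.0393, 0.0121 and 0.00358). The BSJ-03-123 call on HSP90AB1 was lost without DMSO replicate 1 or 2 or BSJ-03-123 replicate 2 or 3 (-0.09 to -0.07). The YKL-06-102 call was lost without DMSO replicate 2, any YKL-06-102 library, or palbociclib replicate 1 or 2 (-0.09 to -0.06).

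HSPB1, the small heat shock protein HSP27, was higher with YKL-06-102 than with either other compound. It had 120.1, 127 and 116 CPM under BSJ-03-123, 147, 142 and 153 under YKL-06-102, 114, 122 and 119.6 under palbociclib, and 131, 162 and 135 under DMSO. BSJ-03-123 and palbociclib lay below every DMSO library, while YKL-06-102 lay inside the DMSO range. The log2 fold changes were -0.25, 0.04 and -0.28 (edgeR adjusted p 0.000859, 0.609 and 0.000154). DMSO replicate 2 was the highest DMSO library for HSPB1, and without it the YKL-06-102 value was 0.17 and was called higher. Its promoter held a single 2-unit match (chr7:76302480-76302509, plus strand).
HSPB1: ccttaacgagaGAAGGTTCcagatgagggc

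Of the 6 cytosolic J-domain genes, which stimulate HSP70 ATPase activity, BSJ-03-123 lowered 3, YKL-06-102 lowered 4 and palbociclib lowered 4. DNAJA4 had 101, 103 and 108 CPM under BSJ-03-123, 87.8, 91.4 and 93.5 under YKL-06-102, 92.2, 89.8 and 89.7 under palbociclib, and 122, 121 and 125 under DMSO. All treated libraries were below DMSO, and BSJ-03-123 was above both other compounds. Its log2 fold changes were -0.24, -0.43 and -0.43 (edgeR adjusted p 7.63e-06, 1.05e-10 and 1.05e-10). DNAJA1, the most abundant J-domain member, had 541, 538 and 528 CPM under BSJ-03-123, 498, 501 and 473 under YKL-06-102, 513, 519 and 498 under palbociclib, and 619.9, 597 and 613 under DMSO. The log2 fold change was -0.19 for BSJ-03-123, -0.31 for YKL-06-102 and -0.26 for palbociclib, with no library overlapping DMSO. DNAJB1, the partner of HSP70 in the heat shock response, changed by -0.18, -0.25 and -0.23. DNAJB1 overlaps TECR on the opposite strand by 211 bases and the strand setting of the counting is not given in the sources used here, so its counts (mean 2436.1 per library, against 2528.8 for TECR) are uncertain to that extent. HSF1 (DGAT1), TCP1 (ACAT2), CACYBP (MRPS14), AHSA1 (VIPAS39), DNAJB11 (TBCCD1), HSP90AA1 (WDR20) and TRAP1 (DNASE1) also overlap a gene on the opposite strand. The overlap of TRAP1 was the longest, at 1531 of 5227 exon bases, with a mean of 4244.2 counts for TRAP1 and 214.1 for DNASE1. Apart from HSPA1A and HSPA1B, the largest shares of 50-base windows that are not unique were 24.8% in HSPD1, 19.1% in DNAJB6 and 18.8% in HSP90AB1.

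The remaining J-domain genes were each called with 1 compound only. DNAJB4 was low, at 5.12, 5.07 and 4.72 CPM under BSJ-03-123, 5.32, 4.99 and 4.41 under YKL-06-102, 4.75, 6.14 and 5.83 under palbociclib, and 4.97, 3.79 and 4.45 under DMSO. The palbociclib and DMSO libraries overlapped, although the difference of 0.35 was called (95% interval 0.09 to 0.61, edgeR adjusted p 0.0354). That call was lost without any one of DMSO replicates 2 and 3 and palbociclib replicates 2 and 3 (0.23 to 0.36). DNAJB6 fell with palbociclib (-0.19, edgeR adjusted p 0.00095), and its values were -0.09 with BSJ-03-123 and 0.01 with YKL-06-102, neither called. DNAJA2 was called with YKL-06-102 only (-0.10), a call lost without any of 7 libraries: DMSO replicates 2 and 3, BSJ-03-123 replicate 1, YKL-06-102 replicates 1 and 3, and palbociclib replicates 1 and 2 (-0.09 to -0.06).

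The 8 cytosolic cochaperones included 6 lowered by BSJ-03-123, 6 by YKL-06-102 and 7 by palbociclib. CHORDC1, an HSP90-binding protein, had 57.5, 52.7 and 57.1 CPM under BSJ-03-123, 50.5, 53.9 and 47.3 under YKL-06-102, 49.3, 52.5 and 51.0 under palbociclib, and 70.4, 64.0 and 71.0 under DMSO. The treated libraries were all below DMSO, with log2 fold changes of -0.29, -0.43 and -0.42 (edgeR adjusted p 4.75e-05, 5.23e-08 and 1.12e-07). CACYBP, which binds the ubiquitin ligase SIAH1, had 115, 109 and 113 CPM under BSJ-03-123, 117, 116 and 107 under YKL-06-102, 109.8, 109 and 109 under palbociclib, and 147, 138 and 147 under DMSO. The compounds overlapped with each other and not with DMSO, at -0.36, -0.35 and -0.40 (edgeR adjusted p 1.25e-08, 1.3e-08 and 1.41e-09).

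PTGES3, the HSP90 cochaperone p23, changed by nearly the same amount with each compound: -0.22, -0.20 and -0.21. STIP1, which links HSP70 to HSP90, changed by -0.14, -0.16 and -0.20. AHSA1, an activator of the HSP90 ATPase, changed by -0.11, -0.14 and -0.12. Its BSJ-03-123 call was lost under 2 of the 8 alternatives that kept all libraries, and its palbociclib call under 1. FKBP4, an HSP90-binding immunophilin of steroid receptor complexes, changed by -0.18, -0.09 and -0.28. Its YKL-06-102 call was lost without any of 7 libraries, which were DMSO replicate 2, BSJ-03-123 replicate 1, the 3 YKL-06-102 libraries and palbociclib replicates 1 and 2 (-0.09 to -0.02). BAG3, an exchange factor of HSP70 with a role in selective autophagy, fell with palbociclib (-0.19, edgeR adjusted p 0.00842), a call lost without palbociclib replicate 2 (-0.15). With BSJ-03-123 it was -0.14 (edgeR adjusted p 0.0506) with every library below DMSO, and it was called without DMSO replicate 3, BSJ-03-123 replicate 2 or palbociclib replicate 2 or 3 (-0.18 to -0.15).

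CDC37, which brings kinase clients to HSP90, was the one cochaperone member that rose with a compound. It had 459.9, 466 and 469.8 CPM under BSJ-03-123, 509, 511 and 516 under YKL-06-102, 458, 463 and 469.8 under palbociclib, and 454, 487 and 467 under DMSO. Only YKL-06-102 lay above every DMSO library. Its log2 fold change was 0.13 with YKL-06-102 (95% interval 0.06 to 0.19, edgeR adjusted p 0.00135), against -0.01 with BSJ-03-123 and -0.02 with palbociclib, which were not called. Of the 3 subunits of the cytosolic chaperonin, which folds actin and tubulin, TCP1 fell by the most (-0.21, -0.22 and -0.23). CCT2 changed by -0.09, -0.16 and -0.10, with the BSJ-03-123 call lost without DMSO replicate 1 or BSJ-03-123 replicate 3 (-0.08) and the palbociclib call lost without palbociclib replicate 1 (-0.09). CCT3 was called with no compound (0.0013, -0.03 and -0.02).

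In the ER, 0 of 5 members were lower with all 3 compounds, against 19 of 27 in the cytosol and 11.8% of all tested genes. HSPA5, the ER HSP70 (BiP) that also holds the sensors of the unfolded protein response inactive, had 1230.1, 1249.5 and 1223 CPM under BSJ-03-123, 1240.3, 1243 and 1233 under YKL-06-102, 1196, 1180.2 and 1199.5 under palbociclib, and 1119.5, 1137 and 1099 under DMSO. Every treated library was above every DMSO library. HSPA5 rose by 10.3% with BSJ-03-123 and 10.7% with YKL-06-102 (edgeR adjusted p 0.000355 and 0.000147). The palbociclib difference was 6.56% (edgeR adjusted p 0.0145), and that call was lost without DMSO replicate 1 or 3 or palbociclib replicate 1 or 3 (log2 fold change 0.07 to 0.09). HSP90B1, the ER HSP90, had 1614, 1598 and 1591 CPM under BSJ-03-123, 1535, 1564 and 1515 under YKL-06-102, 1623, 1624 and 1610.0 under palbociclib, and 1562, 1477 and 1565 under DMSO. BSJ-03-123 and palbociclib lay above DMSO and YKL-06-102 overlapped with it, but edgeR called no difference (0.06, 0.0031 and 0.08, adjusted p 0.146, 0.95 and 0.0536). For palbociclib HSP90B1 was called higher by DESeq2 and limma, with no filter on low counts, with library totals as the only scaling, and without DMSO replicate 3 (0.09); library totals also gave a call for BSJ-03-123 (0.10).

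SERPINH1 (chr11:75562056-75572783, plus strand) encodes HSP47, the ER chaperone of collagen. It had 111, 109 and 111 CPM under BSJ-03-123, 217, 218 and 214 under YKL-06-102, 93.7, 96.6 and 94.7 under palbociclib, and 103, 111 and 102 under DMSO. The YKL-06-102 libraries stood far above all others, palbociclib lay below DMSO, and BSJ-03-123 overlapped with DMSO. SERPINH1 was 105% higher with YKL-06-102 than with DMSO (log2 fold change 1.04, 95% interval 0.97 to 1.11, edgeR adjusted p = 1.12e-19). It fell by 9.81% with palbociclib (-0.15, edgeR adjusted p 0.00175), and the BSJ-03-123 value was 0.07 (-0.01 to 0.14, edgeR adjusted p 0.168). Without DMSO replicate 2 the BSJ-03-123 value of SERPINH1 was 0.11 and was called, as it was with library totals as the only scaling (0.11). It was the one member called in opposite directions by 2 compounds, and its promoter carries the 3-unit heat shock element shown above. HSPA13, an ER HSP70-like ATPase, stood at -0.14, -0.17 and -0.03. Only its YKL-06-102 value was called, and that was lost without DMSO replicate 3 or YKL-06-102 replicate 1 or 3 (-0.15 to -0.11). The BSJ-03-123 value of HSPA13 was called without DMSO replicate 2, BSJ-03-123 replicate 3 or YKL-06-102 replicate 2 (-0.18 to -0.14). DNAJB11, an HSPA5 cochaperone, was called with no compound (0.03, -0.04 and 0.0024).

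In mitochondria, BSJ-03-123 and YKL-06-102 each lowered 3 of 5 members and palbociclib all 5. HSPD1, the chaperonin HSP60, had 933, 961 and 933 CPM under BSJ-03-123, 942, 922 and 889 under YKL-06-102, 920.2, 909.7 and 900.0 under palbociclib, and 1069, 1025 and 1068 under DMSO. All treated libraries were below DMSO, and HSPD1 fell by 10.6% with BSJ-03-123, fell by 12.9% with YKL-06-102 and fell by 13.7% with palbociclib (edgeR adjusted p 0.00018, 6.13e-06 and 3.31e-06). HSPE1, its lid HSP10, had 34.3, 30.8 and 31.3 CPM under BSJ-03-123, 34.6, 34.2 and 34.9 under YKL-06-102, 33.2, 32.0 and 34.1 under palbociclib, and 40.4, 37.6 and 36.2 under DMSO. The values of HSPE1 were -0.24, -0.14 and -0.20, and its libraries did not overlap with DMSO. HSPE1 shares 281 bases with HSPD1 on the opposite strand and averaged 758.3 counts against 21010.6, so it is uncertain. It also shares 192 bases with HSPE1-MOB4 on the same strand, and 17.8% of its 50-base windows are not unique. The YKL-06-102 call of HSPE1 was lost without DMSO replicate 1 or 2, BSJ-03-123 replicate 1, any YKL-06-102 library, or palbociclib replicate 1 or 2 (-0.13 to -0.10).

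HSPA9, the mitochondrial HSP70, changed by -0.08, -0.12 and -0.10. Its BSJ-03-123 call was lost without DMSO replicate 3 or BSJ-03-123 replicate 1 or 3 (-0.09 to -0.08), and its palbociclib call without palbociclib replicate 3 (-0.08). TRAP1, the mitochondrial HSP90, was called with palbociclib only (-0.09, edgeR adjusted p 0.0464), a call lost without DMSO replicate 2, any YKL-06-102 library or any palbociclib library (-0.10 to -0.04). Without DMSO replicate 2 TRAP1 was called higher with YKL-06-102 (0.08, against 0.01 with it). DNAJA3, a mitochondrial J-domain protein, fell with palbociclib (-0.14, edgeR adjusted p 0.002).

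The heat shock factors themselves differed. HSF1, the main activator of the cytosolic response, had 157, 155 and 159 CPM under BSJ-03-123, 159.8, 161 and 165 under YKL-06-102, 151, 155 and 157 under palbociclib, and 159.5, 176 and 156 under DMSO. Each compound overlapped with the DMSO range, and edgeR called no difference (-0.06, -0.02 and -0.09, edgeR adjusted p 0.22, 0.739 and 0.0669). Without DMSO replicate 3 HSF1 was called lower with BSJ-03-123 (-0.11) and palbociclib (-0.13), the second also without DMSO replicate 1 (-0.11). HSF2, a related factor that can pair with HSF1, had 12.9, 12.4 and 13.1 CPM under BSJ-03-123, 14.0, 12.8 and 12.7 under YKL-06-102, 13.2, 14.4 and 12.9 under palbociclib, and 17.2, 15.9 and 16.9 under DMSO. HSF2 was below DMSO in all treated libraries, at -0.38, -0.34 and -0.30 (edgeR adjusted p 0.000167, 0.00029 and 0.00132). These are levels of mRNA, and the activity of HSF1 was not measured.

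The compartments can be set side by side on the same scale. Among 27 cytosolic members, BSJ-03-123 had 20 called, all lower, YKL-06-102 had 21 lower and 1 higher, and palbociclib had 22 lower and 1 higher, with median log2 fold changes of -0.19, -0.20 and -0.23. Among 5 ER members, the single call with BSJ-03-123 was higher, YKL-06-102 had 1 lower and 2 higher, and palbociclib had 1 of each, with medians of 0.06, 0.0031 and 0.0024. The mitochondrial medians were -0.08, -0.12 and -0.14. Without DMSO replicate 2, the cytosolic members lower numbered 19, 18 and 22, and the ER members called were 2 higher and 1 lower with BSJ-03-123, 2 higher and 1 lower with YKL-06-102, and 1 of each with palbociclib. The groups of 5 are small, and no test compares the compartments.

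Summed over their members, cytosolic transcripts stood at 87.7 ± 1.48% of the DMSO mean for BSJ-03-123, 86.0 ± 1.69% for YKL-06-102 and 82.6 ± 0.675% for palbociclib (SD, n = 3), and the DMSO libraries spanned 99.3 to 101%. The ER sum stood at 106 ± 0.554%, 108 ± 1.24% and 105 ± 0.201%, and the mitochondrial sum at 92.1 ± 1.17%, 90.6 ± 1.49% and 89.6 ± 1.14%. Every treated library lay below the DMSO libraries for the cytosolic and mitochondrial sums, and above them for the ER sum. Sums give most weight to the most abundant members. In DMSO, HSPA8, HSP90AA1 and HSP90AB1 made up 27.9%, 21.3% and 12.7% of the cytosolic sum. HSP90B1 and HSPA5 made up 53.5% and 39.0% of the ER sum in DMSO. HSPD1 and HSPA9 made up 50.1% and 31.7% of the mitochondrial sum in DMSO. SERPINH1 was 3.67% of the ER sum in DMSO, yet averaged 216 CPM with YKL-06-102 against 105 with DMSO. In the same comparison HSPA5 averaged 1239 against 1119 CPM and HSP90B1 1538 against 1535. The 39 members took 2.19% of all counts with BSJ-03-123, 2.15% with YKL-06-102, 2.09% with palbociclib and 2.35% with DMSO. Myeloid marker sums also differed between the groups, as given above, and their part in these values was not tested.

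**Figure D3:**
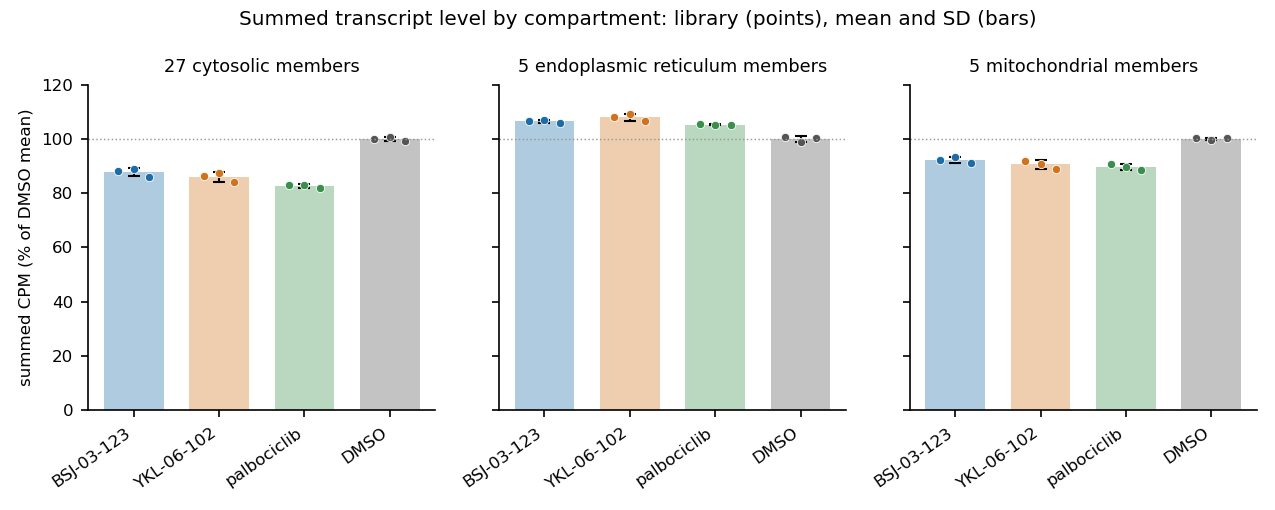
Summed CPM of the cytosolic, ER and mitochondrial members in each library, as a percentage of the DMSO mean, with group means and SD. The cytosolic sums lie at 81.8 to 88.9% in treated libraries and the ER sums at 105 to 109%.

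Levels of different members were compared as CPM per kilobase of exon in DMSO. Exon length was that of all annotated transcripts of a gene merged, which can far exceed any single transcript. It was 14981 bases for DNAJB6, against 2527 in its longest protein-coding transcript. For HSP90AA1 it was 5248 against 3510, and for HSP90AB1 2980 against 2674. The ranks below therefore depend on this length, and would differ with transcript length. HSPA8 ranked first at 1086 ± 24.1, followed by HSP90AB1 at 803 ± 16.1 and HSP90AA1 at 767 ± 17.7 (SD, n = 3), and the gap between these neighbours was not tested. HSP90B1 (327 ± 10.6), HSPA5 (286 ± 4.89), HSPD1 (248 ± 5.82) and DNAJA1 (223 ± 4.37) came next. The lowest were HSPA4L at 4.05, DNAJB6 at 3.87 and DNAJB4 at 1.16. HSPA1A stood at 115 ± 7.06 and HSPA1B at 8.95 ± 0.262, with the shared sequence noted above. HSPA1A and HSPA4L, the members with the lowest log2 fold changes, thus differed in level.

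The compounds were then compared with each other at the same dose and time, in 3 pairs, with p adjusted over all genes within each pair. BSJ-03-123 and palbociclib differed in 4 of 39 members, all higher with BSJ-03-123, when 0.155% of all genes were called by edgeR (22 higher, 0 lower, and 1198 in either direction at an unadjusted p under 0.05). DESeq2 called 43 genes and limma 17, and each called 6 of the members. HSPA1A was 30.6% higher with BSJ-03-123 (log2 difference 0.39, 95% interval 0.30 to 0.47, edgeR adjusted p = 6.06e-06), and this call held without any one library. SERPINH1 (0.22, edgeR adjusted p 0.00524), HSPH1 (0.18, edgeR adjusted p 0.0047) and DNAJA4 (0.20, edgeR adjusted p 0.014) were the others. The call on SERPINH1 was lost without palbociclib replicate 1 (0.20), that on HSPH1 without BSJ-03-123 replicate 2 or palbociclib replicate 1 or 2 (0.16 to 0.18), and that on DNAJA4 without BSJ-03-123 replicate 2 or 3 or any palbociclib library (0.17 to 0.21). The count of 4 became 1 without palbociclib replicate 1, 2 without palbociclib replicate 2, 2 without BSJ-03-123 replicate 2 and 8 without DMSO replicate 2. Of all genes, 3, 5, 5 and 116 were called in those fits, in the same order, against 22 in the main fit. The remaining 35 members were not called in the main fit, with intervals such as 0.05 to 0.18 for HSP90AA1, 0.06 to 0.21 for HSPA8 and -0.03 to 0.10 for HSP90AB1. These bound differences and do not show that the compounds act alike. HSPA8 was called higher with BSJ-03-123 under 5 of the 8 alternatives that kept all libraries, and HSP90AA1 under 3. Both were also called without DMSO replicate 2.

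YKL-06-102 and palbociclib differed in 11 members, 9 higher and 2 lower with YKL-06-102, against 24.7% of all genes (12.7% higher, 11.9% lower). SERPINH1 had the largest difference, 1.19 (95% interval 1.12 to 1.26, edgeR adjusted p = 4.13e-20). HSPA1A was 52.0% higher with YKL-06-102 (0.60, 0.52 to 0.69, edgeR adjusted p = 3.51e-12) and HSPB1 stood at 0.32 (0.21 to 0.43, edgeR adjusted p 3.34e-05). DNAJB6 (0.20), FKBP4 (0.18), BAG3 (0.17), CDC37 (0.14), HSP90AA1 (0.13) and TRAP1 (0.10) were also higher, and HSPA13 (-0.14) and DNAJA2 (-0.10) were lower. The HSPA13 call was lost without any library other than DMSO replicate 3, YKL-06-102 replicate 2 and palbociclib replicate 3 (-0.14 to -0.08). The DNAJA2 call was lost without BSJ-03-123 replicate 1, any YKL-06-102 library, or palbociclib replicate 1 or 2 (-0.10 to -0.06), and the BAG3 call without palbociclib replicate 2 (0.16). For HSPA8 the interval was -0.03 to 0.12, for HSPA4L -0.08 to 0.15 and for CHORDC1 -0.11 to 0.10, and none was called. The count of 11 was 14 higher and 1 lower without DMSO replicate 2. Of all genes, 4114 were called in that fit, against 3507 in the main fit.

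BSJ-03-123 and YKL-06-102, both phthalimide conjugates by their labels, differed in 10 members, 6 higher and 4 lower with BSJ-03-123, against 20.1% of all genes (9.74% higher, 10.4% lower). SERPINH1 stood at a log2 difference of -0.97 (95% interval -1.04 to -0.90, edgeR adjusted p = 3.42e-18). HSPB1 (-0.28), HSPA1A (-0.22) and CDC37 (-0.14) were the other members lower with BSJ-03-123. Higher with BSJ-03-123 were HSPA1B (0.33), DNAJA4 (0.19), DNAJA2 (0.14), HSPH1 (0.13), DNAJA1 (0.13) and HSPA4 (0.09). HSPA1A and HSPA1B thus had opposite signs, and with the pair summed the difference was -0.17 (edgeR adjusted p 0.00141). Without YKL-06-102 replicate 3 the calls on HSPA4, HSPH1, DNAJA1 and DNAJA2 were lost (0.05 to 0.10), the DNAJA1 call also without BSJ-03-123 replicate 1 (0.10), and the HSPA4 call also without BSJ-03-123 replicate 1 or 2, either other YKL-06-102 library, or palbociclib replicate 1 or 2 (0.07 to 0.08). Without DMSO replicate 2 the pair differed in 7 members higher and 8 lower with BSJ-03-123. Of all genes, 3445 were called in that fit, against 2861 in the main fit. HSPA5 (-0.06 to 0.05) and HSP90AA1 (-0.09 to 0.04) were among the 29 members not called in the main fit. HSPA8 (0.09) was another, but it was called under 4 of the 8 alternatives that kept all libraries and without BSJ-03-123 replicate 3.

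**Figure D4:**
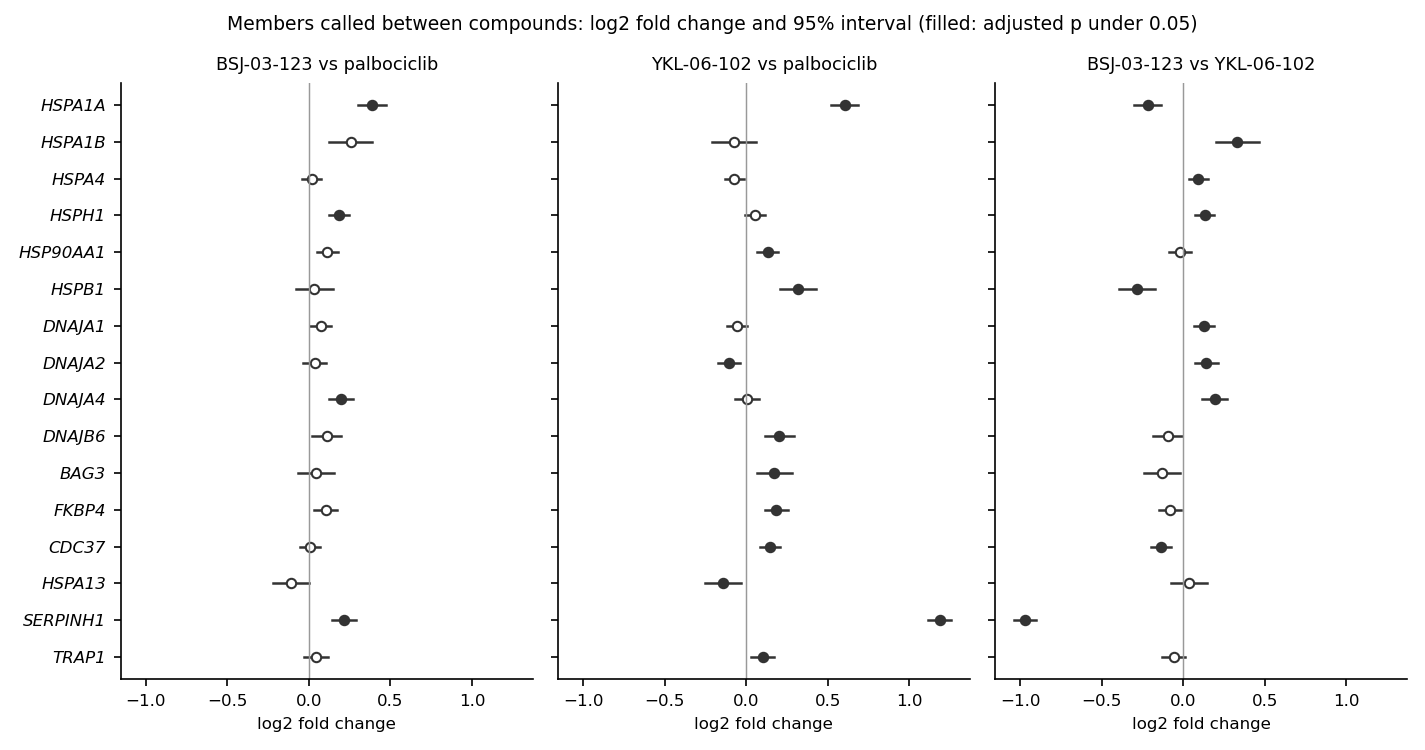
Log2 differences between compounds for the 16 members called in at least 1 of the 3 pairs, with 95% intervals from edgeR and filled points for adjusted p under 0.05. SERPINH1 with YKL-06-102 and HSPA1A with palbociclib give the widest separations.

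Palbociclib gave the lowest of the 3 compound means for 22 of 39 members, YKL-06-102 for 14 and BSJ-03-123 for 3. For cytosolic members these numbers were 16, 10 and 1 of 27. Every BSJ-03-123 library was above every palbociclib library in 19 members. The YKL-06-102 libraries were all above those of palbociclib in 16 members and all below in 4. The BSJ-03-123 libraries were all above those of YKL-06-102 in 10 and all below in 9. Neither these counts nor those of the lowest mean were taken over all tested genes, so they describe the members only.

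Genes of related systems were read from lists beside the members. Of 28 genes of the ER unfolded protein response other than the members, 10 rose and 4 fell with BSJ-03-123, 5 rose and 7 fell with YKL-06-102, and 11 rose and 5 fell with palbociclib. HERPUD1, a component of the ER degradation machinery, averaged 98.2 CPM with BSJ-03-123, 113 with YKL-06-102, 95.4 with palbociclib and 81.4 with DMSO, at 0.27, 0.48 and 0.23. ERO1A, an oxidase of disulphide formation, fell with YKL-06-102 (-0.44), and SDF2L1, an HSPA5-complex protein, fell with palbociclib (-0.35). The medians of the list were 0.07, 0.02 and 0.06, with 7, 10 and 7 of the 28 genes below 0, and 14, 12 and 16 were called, against 28.1%, 36.9% and 33.3% of all genes.

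Of 26 other HSP70 and HSP90 cochaperones, 2 rose and 7 fell with BSJ-03-123, 2 rose and 8 fell with YKL-06-102, and 2 rose and 9 fell with palbociclib. BAG2, which inhibits the HSP70-bound ligase CHIP, had -0.61, -0.71 and -0.66, and PPP5C, a phosphatase bound to HSP90, had -0.38, -0.27 and -0.42. Among 29 other J-domain genes, 4 rose and 3 fell with BSJ-03-123, 4 rose and 5 fell with YKL-06-102, and 4 rose and 3 fell with palbociclib. The shares called were 24.1%, 31.0% and 24.1% of the other J-domain genes and 34.6%, 38.5% and 42.3% of the other cochaperones. Of all genes, 28.1%, 36.9% and 33.3% were called. DNAJC9, a J-domain protein that handles histones, had 33.5, 37.3 and 29.7 CPM with the compounds in the same order and 66.8 CPM with DMSO (-0.99, -0.84 and -1.17). The 12 other chaperonin and prefoldin genes had 4, 5 and 4 called, all lower (33.3%, 41.7% and 33.3%). The 22 genes of mitochondrial protein quality control had 3, 7 and 5 that fell and 1, 1 and 3 that rose. The shares called in that list were 18.2%, 36.4% and 36.4%, to be read beside the same shares of all genes. Of 9 regulators and relatives of HSF1, 3 were called with BSJ-03-123, all higher, among them the acetyltransferase EP300 (0.19). With YKL-06-102, 3 rose and 3 fell, and with palbociclib 3 were called, all higher. The shares called of those 9 were 33.3%, 66.7% and 33.3%.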

How the data were processed

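Polyadenylated RNA of MV4-11 cells was sequenced in 12 libraries, 3 per group, after a TruSeq Stranded mRNA preparation, per the labels' protocols. The table the authors deposited holds raw, unscaled counts of reads per Ensembl gene. Trimmomatic 0.36, STAR 2.5.2b, HTSeq and the build hg38 are named in the submitters' processing notes. The annotation release and strand setting of the counting were not given in the sources used here. GENCODE 29 supplied symbols for 57447 of 58051 identifiers.

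From the counts, edgeR 4.0.16 in R 4.3.3 fitted 4 groups over all 12 libraries with TMM factors, keeping genes by a minimum count of 10 and a minimum total of 15 (14214 genes, 99.92% of counts). The quasi-likelihood test was two-sided, with 8 residual degrees of freedom and p adjusted over all genes tested. The biological coefficient of variation was 3.08%, so small differences could pass. Levels are TMM-scaled CPM. Fold changes used a prior count of 0.125 and intervals cover 95%. The scripts were tested on simulated data. Alternatives were DESeq2 1.42.0, limma 3.58.1 with voom, other scalings and filters, a replicate block, 2-group fits, the HSPA1A and HSPA1B counts summed, and each library left out.

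The members and lists were chosen with earlier results of these data known. Values in every library are given for members called with an absolute log2 fold change of at least 0.3 in some comparison, for the highest member of each compartment and for HSF1, HSPA5, HSPE1, HSP90AB1 and CDC37. From other lists, up to 3 called genes per comparison were eligible.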

Additional observations from a re-analysis of the deposited data

How the results depend on the processing

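Of 4674 member values recomputed under 20 alternatives, 4450 kept their side of the threshold, 148 lost a call and 76 gained one. Where the main or the alternative value was called, 0 changed sign. Signs were not compared for values called in neither fit. Leaving out 1 library gave 23 to 26 members called for BSJ-03-123 against DMSO, 23 to 29 for YKL-06-102, 27 to 31 for palbociclib, 1 to 8 for BSJ-03-123 against palbociclib, 8 to 15 for YKL-06-102 against palbociclib and 7 to 15 for BSJ-03-123 against YKL-06-102. Of all genes, 3343 to 4088, 4442 to 5583, 3876 to 4657, 3 to 116, 2707 to 4114 and 2222 to 3445 were called in those fits. In the same order of comparisons, the cytosolic median log2 fold change spanned -0.21 to -0.15, -0.21 to -0.18, -0.25 to -0.23, 0.046 to 0.068, 0.018 to 0.059 and -0.012 to 0.031. The ER median spanned 0.045 to 0.058, -0.0021 to 0.033, -0.046 to 0.026, 0.0052 to 0.056, -0.064 to 0.026 and -0.027 to 0.049. The mitochondrial median spanned -0.095 to -0.077, -0.12 to -0.097, -0.16 to -0.12, 0.034 to 0.044, 0.061 to 0.093 and -0.032 to 0.034. Under the 8 alternatives that kept all libraries, some calls against DMSO were lost. With YKL-06-102, FKBP4 and HSPE1 lost theirs under 5, DNAJA2 under 4, HSP90AB1 under 3, HSPA13 under 2 and HSPA4 under 1. With palbociclib, TRAP1 lost its call under 5, DNAJB4, CCT2 and HSPA9 under 2, and HSP90AB1, AHSA1 and HSPA5 under 1. With BSJ-03-123, HSP90AB1, CCT2 and HSPA9 lost theirs under 3 and AHSA1 under 2.

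With only the 2 groups in the fit, 17 members were called between YKL-06-102 and palbociclib. Of all genes, 4310 were called in that fit, against 3507 in the main fit. Median log2 fold changes that moved were as follows. With library totals as the only scaling, which put the median of all genes at 0.05, 0.02 and 0.06 for BSJ-03-123, YKL-06-102 and palbociclib against DMSO, the cytosolic medians were -0.14, -0.17 and -0.18, the ER medians 0.10, 0.040 and 0.050 and the mitochondrial medians -0.039, -0.086 and -0.092. With no filter on low counts they were -0.17, -0.18 and -0.21 in the cytosol, 0.074, 0.033 and 0.022 in the ER, and, for YKL-06-102 and palbociclib, -0.094 and -0.12 in mitochondria. With only the 2 groups, the YKL-06-102 medians were -0.19, 0.023 and -0.10, and with HSPA1A and HSPA1B summed the cytosolic one was -0.18. The mitochondrial median of YKL-06-102 against palbociclib was 0.075 with DESeq2 size factors, 0.052 with library totals, 0.072 with no filter and 0.074 with DESeq2, and that of BSJ-03-123 against YKL-06-102 was -0.010 with no filter. The cause was not tested.

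With a replicate block, 25, 29 and 30 members were called against DMSO for BSJ-03-123, YKL-06-102 and palbociclib, 5 between BSJ-03-123 and palbociclib, 10 between YKL-06-102 and palbociclib and 11 between BSJ-03-123 and YKL-06-102. Of all genes, 3991, 5244, 4687, 26, 3500 and 2839 were called with the block, in the same order. Of 18 pairs of libraries with the same number, 2 had deviations correlated over 0.1 (range -0.162 to 0.229) and 7 of 12 libraries correlated best with their own number, so the numbers are not taken as pairing. Counts of DNAJB4, HSF2 and HSPA1B are the lowest among the members named, and their intervals the widest, so small differences in them were not detectable at this depth.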
